A study of Mus musculus with 3 samples.

Results

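The genes described here are 4 collagen genes, Col6a1, Col6a2, Col6a3 and Col26a1, out of 20471 in the deposited count table. They were named as a group and all 4 were present. Levels are given as CPM, the count of a gene as a share of the total count of its well, scaled to a total of 1e6. The 4 were chosen on results of these data already known, among them a Col6a1 value for bC8FAE against bCFAE. That contrast is therefore described without a test, and the other results are no independent support for the choice. Other comparisons that use bC8FAE or bCFAE wells reuse wells of that contrast, so their p-values are not independent of the choice.

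The assay was DRUG-seq2, a pooled RNA sequencing method in which a barcode marks the RNA of each well, so that all wells of a plate are sequenced together. The wells compared here held wild-type mouse embryonic fibroblasts (MEF), cells grown out of embryos. The labels give 4 days in the medium CFAE+8 with compounds, and no separate time for wells named for another medium or MEF. On 3 plates, most wells held the medium CFAE+8 with 1 compound of a commercial library of kinase inhibitors. Plate 3 also held wells named only for a medium, and wells named nocell that no comparison used. There were 3 wells each of basal, bCFAE and bC6FAE[2], 4 each of bCSFAE, bCLFAE, bC6FAE[10] and MEF, and 5 of bC8FAE. The labels and files used here do not state what these media contain, the doses of the compounds or any vehicle control. The names are used as the files spell them, and bC8FAE was taken from its name as the screening medium without a compound. Whether the wells of a group came from separate cultures is not stated, so p-values measure the spread between wells of 1 plate, which may be technical.

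Collagen VI is a beaded-filament collagen of the matrix around cells. Its common form is built from 3 chains, which Col6a1, Col6a2 and Col6a3 encode. The chains assemble inside the cell into monomers, dimers and tetramers, and fibroblasts are its main source in many tissues. Mutations in these genes cause muscle disorders such as Ullrich muscular dystrophy and Bethlem myopathy. The carboxy-terminal C5 domain of the Col6a3 chain is released as endotrophin. Collagen XXVI, the product of Col26a1 (also known as Emid2), is a smaller secreted collagen with an EMI domain, described mainly in testis and ovary.

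In mm10 (GENCODE vM21), Col6a1 lies on chromosome 10 from 76708792 to 76726168 on the minus strand. Col6a2 lies on the same strand of the same chromosome, from 76595762 to 76623630, so 85161 bases separate the 2 genes. Col6a3 is on chromosome 1 from 90765923 to 90843971, and Col26a1 on chromosome 5 from 136741759 to 136883209, both on the minus strand. An annotated transcript named Gm36970 lies inside Col6a3 and one named Gm20485 inside Col26a1. The labels and files used here do not state how the counting treated such overlaps.

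Because the chains of collagen VI moved together in most comparisons below, their promoter windows are shown. Each runs from 250 bases before to 50 bases after a start site (RefSeq sequence, GRCm38.p6, which has the coordinates of mm10), 5′ to 3′ on the strand of the gene. RefSeq windows were found for 3 of the 4 genes, and Col6a2 had a further window for a start site upstream. Capitals mark matches on either strand to 6 motifs: the GC box spelled GGGCGG, the TATA box spelled TATAAA, the CCAAT box, the motif of AP-1 spelled TGANTCA, that of TEAD factors spelled GGAATG, and that of TCF/LEF factors spelled CTTTGAN.
Col6a1 (chr10:76725995-76726294, minus): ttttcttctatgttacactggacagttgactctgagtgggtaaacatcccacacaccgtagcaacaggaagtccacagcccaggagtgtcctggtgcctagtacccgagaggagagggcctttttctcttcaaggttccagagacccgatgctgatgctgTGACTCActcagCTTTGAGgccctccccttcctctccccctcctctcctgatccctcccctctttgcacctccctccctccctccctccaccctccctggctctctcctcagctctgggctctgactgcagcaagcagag
Col6a2 (chr10:76623355-76623654, minus): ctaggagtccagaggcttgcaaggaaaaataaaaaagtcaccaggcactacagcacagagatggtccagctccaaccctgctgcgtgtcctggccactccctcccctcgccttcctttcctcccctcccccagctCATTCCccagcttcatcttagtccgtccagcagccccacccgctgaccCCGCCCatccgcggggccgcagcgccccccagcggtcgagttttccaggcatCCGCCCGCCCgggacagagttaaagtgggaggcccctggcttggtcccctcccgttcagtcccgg
Col6a3 (chr1:90843922-90844221, minus): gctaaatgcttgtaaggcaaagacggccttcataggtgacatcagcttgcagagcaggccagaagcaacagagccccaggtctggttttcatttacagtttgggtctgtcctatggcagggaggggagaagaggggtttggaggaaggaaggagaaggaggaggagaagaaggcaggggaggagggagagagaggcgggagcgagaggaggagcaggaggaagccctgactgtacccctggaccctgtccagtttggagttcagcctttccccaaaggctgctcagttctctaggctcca

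The Col6a1 window held an AP-1 match that begins 90 bases before the start site and a TCF/LEF match that begins 78 bases before it. AP-1 letters occur in 7.81% and TCF/LEF letters in 16.0% of 32851 promoter windows of this length. The Col6a2 window shown held 3 GC boxes, which begin 67, 15 and 11 bases before its start site, the last pair overlapping, and 1 TEAD match farther upstream. GC boxes occur in 35.7% of windows and TEAD letters in 14.7%. The Col6a3 window held none of the 6 motifs, and neither a TATA box (13.6% of windows) nor CCAAT (37.4%) was found in the 3 windows shown. The further Col6a2 window, not shown (chr10:76623581-76623880, minus), held a GC box 175 bases and a TCF/LEF match 197 bases before its start site, the latter to the motif also matched in the Col6a1 window. A match is a description of letters and not of a bound site.

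The wells named for a medium had total counts of 119156 to 725438. Of these wells bC8FAE 4 was the shallowest, and MEF 3 followed at 138590. Screening wells had median totals of 317944 on plate 1, 608456.5 on plate 2 and 427376 on plate 3, and 222 of 226 reached 10% of the median of their plate and were used. In bulk wells, fewer cells expressing a gene and less RNA per cell cannot be told apart. All 8 fibroblast markers had counts in every medium group, with a summed level of 4083 to 7831 CPM per well. Of the macrophage markers, Ptprc was at 0 counts in all medium wells, while Lyz2, Cd68 and Csf1r had counts in every medium. Mean Lyz2 ran from 13.4 CPM in bC6FAE[10] to 170 CPM in MEF. The endothelial markers summed to at most 17.0 CPM in the medium wells. Of the epithelial markers, Epcam was at 0 counts in all medium groups but bCLFAE, while Krt8 and Krt18 had counts in every medium. Mean Krt18 ran from 12.4 CPM in MEF to 65.2 CPM in bCFAE.

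The means of all 4 genes were lower in MEF, basal and bCFAE than in the other 5 media. For Col6a1 and Col26a1 the wells were apart as well, while for Col6a2 and Col6a3 some wells overlapped. Col6a1, which encodes the alpha1 chain, stood at 343, 282, 245 and 355 CPM in the 4 MEF wells. In basal wells it was at 330.1, 299.8 and 273 CPM, and in bCFAE wells at 289, 227 and 259 CPM. These 10 wells overlapped, and every well of the other 5 media was above them. The bC8FAE wells had 631, 507, 605, 898 and 666 CPM, and the highest value came from the shallow well bC8FAE 4. In bC6FAE[2] wells Col6a1 was at 870.5, 799.7 and 731 CPM, and in bC6FAE[10] wells it reached 1036, 921, 936 and 895 CPM. The bCLFAE wells had 564, 546, 517 and 692 CPM, and the bCSFAE wells 563, 658, 573 and 725 CPM. The means ± SD, from the lowest to the highest, were those of bCFAE (258 ± 30.8 CPM, n = 3), basal (301 ± 28.6, n = 3), MEF (306 ± 51.8, n = 4), bCLFAE (579.9 ± 77.2, n = 4), bCSFAE (629.7 ± 76.2, n = 4), bC8FAE (661 ± 144.96, n = 5), bC6FAE[2] (800.5 ± 69.6, n = 3) and bC6FAE[10] (947 ± 62.0, n = 4). Between neighbours in this order, the SD ranges were apart only from MEF to bCLFAE and from bC6FAE[2] to bC6FAE[10], and the well ranges were apart at the same steps.

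Col6a2, which encodes the alpha2 chain, had 188, 119.5, 224 and 187 CPM in MEF wells, 127, 165 and 162 CPM in basal wells and 122, 121 and 142 CPM in bCFAE wells. The bC8FAE wells had 281, 228, 223, 344 and 351 CPM, and the lowest of them lay just below the highest MEF well. In bC6FAE[2] wells the gene was at 454, 422 and 366 CPM and in bC6FAE[10] wells at 551, 438, 488 and 544 CPM. All 7 wells of the bC6FAE media were above every well of the other media. The bCLFAE wells had 231, 222, 217 and 302 CPM and the bCSFAE wells 259, 285, 243 and 283 CPM, beside the bC8FAE wells. Neighbouring means in the order bCFAE, basal, MEF, bCLFAE, bCSFAE, bC8FAE, bC6FAE[2] and bC6FAE[10] stood apart by more than their SDs only between bC8FAE (285 ± 61.1 CPM, n = 5) and bC6FAE[2] (414 ± 44.8 CPM, n = 3). The count of Col6a1 over that of Col6a2 in the same well averaged between 1.79 ± 0.522 (SD, n = 4 MEF wells) and 2.40 ± 0.0767 (n = 4 bCLFAE wells). These 2 media overlapped in the ratio, with single MEF wells at 1.10 to 2.36 and bCLFAE wells at 2.29 to 2.46.

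Col6a3 encodes the alpha3 chain, the longest of the 3. It had 62.7, 79.7, 57.7 and 64.6 CPM in MEF wells, 56.4, 50.0 and 76.2 CPM in basal wells and 63.2, 59.3 and 58.2 CPM in bCFAE wells. The bC8FAE wells spread widely, at 109, 89.1, 70.9, 201 and 133 CPM, and overlapped the MEF wells. The highest, 201 CPM, rests on 24 counts in the shallow well bC8FAE 4. The bC6FAE[2] wells had 133, 116 and 101 CPM and the bC6FAE[10] wells 113, 86.5, 142 and 102 CPM. The bCLFAE wells were lower, at 77.6, 86.0, 90.3 and 92.0 CPM, and the bCSFAE wells had 119, 137, 109.9 and 106 CPM. For Col6a3 no pair of neighbours in the order of media was separated well by well. The count of Col6a1 over that of Col6a3 averaged 4.28 ± 0.392 (SD, n = 3) in bCFAE wells and 8.79 ± 1.67 (n = 4) in bC6FAE[10] wells, and these wells did not overlap.

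Col26a1 was close to absent in MEF, basal and bCFAE wells. It had 0, 1, 0 and 0 counts in the 4 MEF wells, 0, 0 and 1 counts in basal wells and 0, 1 and 2 counts in bCFAE wells. Over the wells of a medium together, the level was 0.823 CPM in MEF, 0.990 CPM in basal and 1.65 CPM in bCFAE. These pooled levels rest on 1, 1 and 3 counts. The bC8FAE wells had 41.6, 21.7, 17.7, 16.8 and 81.9 CPM, all above the highest well of those media, which was a bCFAE well with 4.66 CPM. The bC6FAE[2] wells had 21.8, 15.6 and 33.8 CPM, and the bC6FAE[10] wells had 66.1, 53.8, 74.3 and 92.97 CPM. In bCLFAE wells the gene was at 9.70, 21.1, 20.3 and 36.8 CPM, and in bCSFAE wells at 19.8, 17.1, 31.4 and 28.7 CPM. From bCFAE to bCLFAE the wells were separated, and the later neighbours overlapped.

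**Figure D1:**
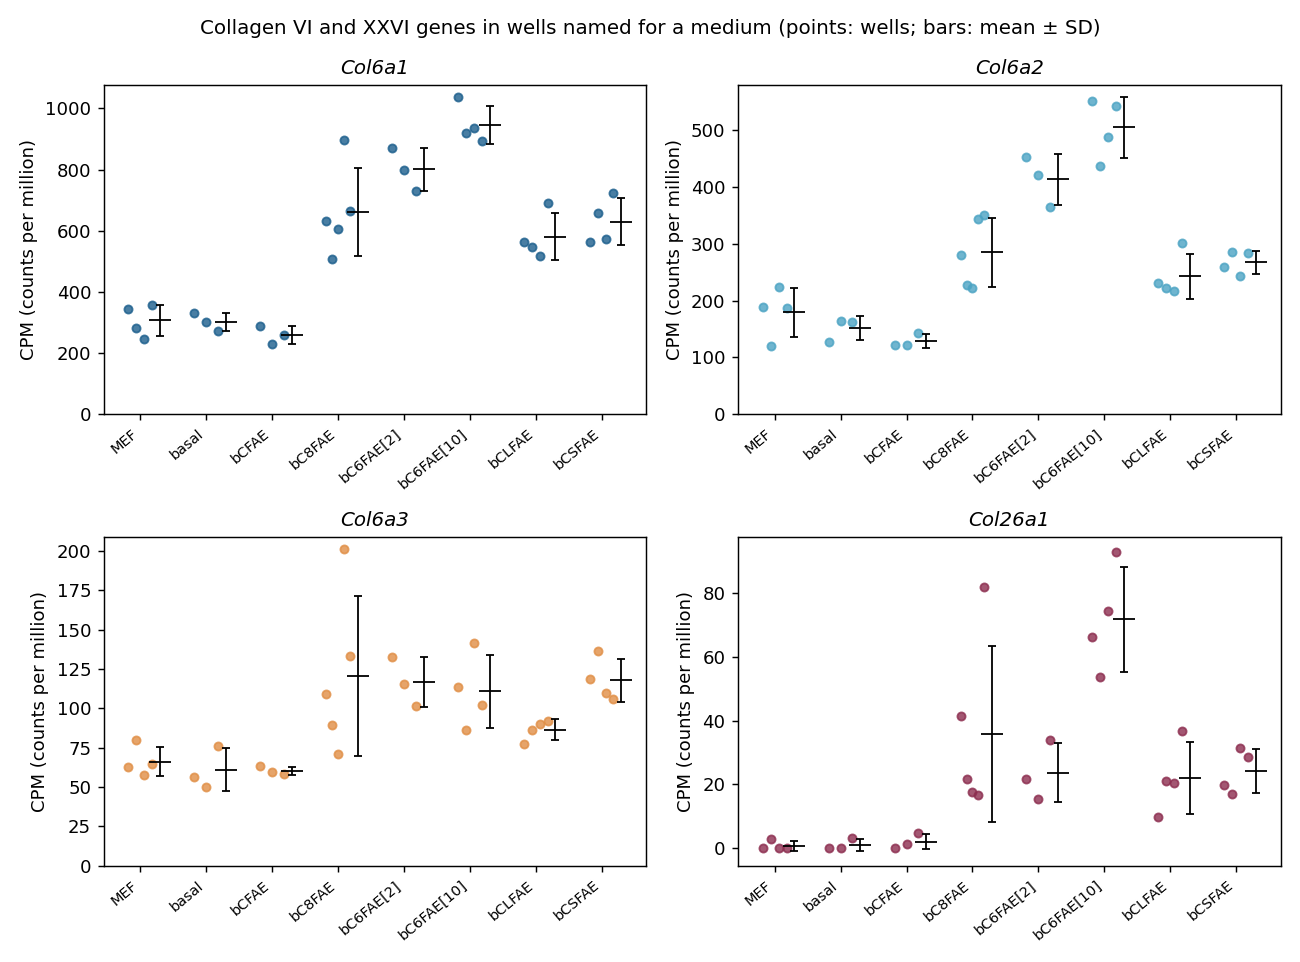
Level of each gene in CPM (vertical axis, a scale of its own for each gene) in the 30 wells named for a medium; points are wells and bars the mean ± SD of 3 to 5 wells. The means of MEF, basal and bCFAE lie lowest for all 4 genes, with some overlap of wells for Col6a2 and Col6a3, and the highest Col6a1, Col6a2 and Col26a1 wells are bC6FAE[10].

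The comparisons of media were fitted with edgeR over all 30 wells and 6973 genes, and calls rest on an adjusted p (Benjamini-Hochberg) under 0.05. The background share of genes called in a media comparison counts both directions. Basal medium was first compared with MEF. None of the 4 collagen genes was called there, at a background of 0.66% of all genes called (654 genes had an unadjusted p under 0.05). Col6a1 differed by a log2 fold change of -0.01 ± 0.15 (SE), Col6a2 by -0.16 ± 0.18 and Col6a3 by -0.12 ± 0.25, with adjusted p of 0.849 or more, and Col26a1 had 1 count in each medium.

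In bCFAE against basal medium, 34.5% of all genes were called and again none of the 4. Col6a1 differed by -0.36 ± 0.16 (adjusted p = 0.0703), Col6a2 by -0.38 ± 0.18 (adjusted p = 0.112) and Col6a3 by -0.13 ± 0.24 (adjusted p = 0.709). The adipocyte markers summed to 149 to 279 CPM in basal wells and 2.33 to 4.14 CPM in bCFAE wells. The macrophage markers summed to 87.5 to 251 and 40.7 to 44.2 CPM, and the epithelial markers to 15.9 to 32.3 and 54.2 to 81.5 CPM. Of the macrophage markers, mean Lyz2 was 125 CPM in basal and 20.3 CPM in bCFAE wells, and Csf1r 3.02 and 1.42 CPM. Mean Cd68 went the other way, at 17.2 and 20.9 CPM. The part of these markers was not tested. The Col6a1 difference was called when the 2 media were fitted alone (-0.35, adjusted p = 0.0271), at a minimum count of 30 (adjusted p = 0.0404) and without the shallow wells MEF 3 and bC8FAE 4 (adjusted p = 0.0302). In the same comparison other collagens changed strongly. Of 14 measured collagen genes outside the 4, 3 rose and 9 fell, with a median log2 fold change of -1.29 beside 0.01 for all genes. The fibril-forming Col1a1 fell from 460 ± 58.2 to 153 ± 9.84 CPM (SD, n = 3 each) and Col3a1 from 420 ± 71.5 to 56.1 ± 32.2 CPM. The basement membrane collagen gene Col18a1, source of endostatin, rose from 84.2 ± 3.48 to 579 ± 58.8 CPM.

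The screening medium was compared with the wells named MEF to ask how the starting point of the screen differed from them. Whether these wells differed in medium alone is not stated. In bC8FAE against MEF, all 4 genes were called higher, at a background of 32.0% of genes (1031 rose and 1203 fell). Col6a1 rose by a log2 fold change of 0.94 ± 0.13 (adjusted p = 1.87e-08), Col6a2 by 0.60 ± 0.15 (adjusted p = 0.00103) and Col6a3 by 0.61 ± 0.20 (adjusted p = 0.0131). Without the shallow wells MEF 3 and bC8FAE 4, the Col6a3 difference was 0.49 and not called (adjusted p = 0.0592). It was also lost without MEF 1 (0.56, adjusted p = 0.0601). Col26a1 had 72 counts in the 5 bC8FAE wells and 1 count in the 4 MEF wells, a ratio of summed levels of 46.8 (exact 95% counting interval 8.13 to 1870.0) and an adjusted p of 8.85e-07. Its fitted log2 fold change of 5.08 was 7.14 without MEF 2, the MEF well with the 1 count, and stayed called without any 1 well (4.56 to 7.14). The macrophage markers summed to 141 to 325 CPM in the MEF wells and 32.6 to 83.9 CPM in the bC8FAE wells. Single macrophage markers went both ways. Mean Lyz2 was 170 CPM in MEF and 27.6 CPM in bC8FAE wells, and Csf1r 8.28 and 3.19 CPM. Mean Cd68 was 18.9 CPM in MEF and 24.5 CPM in bC8FAE wells. The adipocyte markers summed to 93.3 to 188 CPM and 0 to 16.8 CPM, with Adipoq and Plin1 at 0 in both. The part of these markers in these differences was not tested.

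Col1a1, Col1a2 and Col3a1, genes of fibrillar collagens, moved the opposite way to collagen VI between these media. Col1a1 fell from 662 ± 151 CPM in MEF wells (SD, n = 4) to 136 ± 65.4 CPM in bC8FAE wells (n = 5), Col1a2 from 962 ± 87.3 to 240.4 ± 77.7 CPM and Col3a1 from 507 ± 132 to 119 ± 52.0 CPM. Col18a1 rose from 81.0 ± 20.2 to 1584 ± 234 CPM. In all, 4 of 14 other collagens rose and 9 fell, with a median log2 fold change of -1.66. Among 8 measured matrix proteins that bind collagen VI, 8 fell and 0 rose (median -1.83). The proteoglycan biglycan (Bgn) went from 3271 ± 382 to 364 ± 94.7 CPM, fibronectin (Fn1) from 1264 ± 153 to 848 ± 220 CPM and perlecan (Hspg2) from 610.3 ± 103 to 434 ± 106 CPM. Of 13 genes for collagen folding and modification, 10 fell and 0 rose (median -0.64). They included the chaperone gene Serpinh1, known as HSP47, by a fall of 0.62 ± 0.11 on the log2 scale, P4hb, a subunit of prolyl hydroxylase, by a fall of 0.47 ± 0.10, and Ppib by a fall of 0.42 ± 0.10.

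Receptors of collagen VI went both ways in bC8FAE against MEF. Of 8 measured, 2 rose and 2 fell (median 0.09). Antxr2, an anthrax toxin receptor that binds collagen VI, rose by 1.09 ± 0.25, the integrin chain gene Itgb1 rose by 0.39 ± 0.13, and the collagen receptor gene Ddr2 was not called (-0.11 ± 0.23). Of 5 proteases, 3 rose and 2 fell (median 0.73). Mmp11, a stromelysin that can cleave the Col6a3 chain, rose by 2.50 ± 0.26, Mmp14 rose by 0.73 ± 0.17 and Mmp2 fell by 0.59 ± 0.12. Among 2 measured relatives of Col26a1 with an EMI domain, Emilin1 fell by 1.16 ± 0.18 and Emilin2 rose by 0.62 ± 0.17. Of 10 measured TGF-beta response genes, 1 rose and 6 fell (median -0.92). Tgfbi rose by 0.55 ± 0.16, Pmepa1 fell by 0.93 ± 0.13 and Tgfbr2 fell by 0.91 ± 0.16.

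Next come the media set against bCFAE. They all share the same 3 bCFAE wells, so their results are not independent of each other or of the value used in the choice. In bC8FAE against bCFAE, the contrast with the value used in the choice, 11.3% of genes were called. Here Col6a1 was at 661 ± 144.96 against 258 ± 30.8 CPM, Col6a2 at 285 ± 61.1 against 128 ± 11.8 CPM, Col6a3 at 121 ± 50.7 against 60.2 ± 2.65 CPM and Col26a1 at 35.9 ± 27.6 against 2.01 ± 2.39 CPM (SD, n = 5 and 3). No well of either medium overlapped for any of the 4. The epithelial markers summed to 7.91 to 35.4 CPM in bC8FAE wells and 54.2 to 81.5 CPM in bCFAE wells, and their part was not tested.

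In bC6FAE[2] against bCFAE all 4 genes rose, at a background of 8.53% of genes (337 rose and 258 fell). Col6a1 rose by 1.71 ± 0.14 (adjusted p = 2.29e-14), Col6a2 by 1.78 ± 0.16 (adjusted p = 1.48e-13) and Col6a3 by 1.04 ± 0.20 (adjusted p = 0.000139). Col26a1 had 29 counts against 3, a ratio of 13.7 (95% counting interval 4.26 to 70.5, adjusted p = 0.00044). The summed fibroblast markers were 5764 to 6429 CPM in bC6FAE[2] wells against 4942 to 5394 CPM in bCFAE wells. Among them mean Thy1 was higher (3143 against 978 CPM) and Vim lower (2010 against 3281 CPM). The macrophage markers were at 47.6 to 57.8 against 40.7 to 44.2 CPM. Of these, mean Cd68 was 27.1 against 20.9 CPM and Csf1r 9.42 against 1.42 CPM, while Lyz2 was 16.0 against 20.3 CPM. The part of these markers was not tested. In bC6FAE[10] against bCFAE all 4 rose again, at a background of 13.7%. Col6a1 rose by 1.92 ± 0.13 (adjusted p = 2.31e-17), Col6a2 by 2.03 ± 0.15 (adjusted p = 5.24e-17) and Col6a3 by 0.91 ± 0.18 (adjusted p = 0.0002). Col26a1 had 135 counts against 3, a ratio of 42.8 (14.3 to 210.0, adjusted p = 2.19e-11). The summed fibroblast markers were also higher in bC6FAE[10] wells, at 6655 to 7831 CPM against 4942 to 5394 CPM in bCFAE wells. Single markers went both ways. Mean Thy1 was 4185 against 978 CPM, while Vim was 1982 against 3281 CPM and Col1a2 226 against 271 CPM. The part of these markers in the result was not tested.

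The other genes of the pathway moved in part with them in bC6FAE[10] against bCFAE. Of 14 other collagens, 8 rose and 0 fell (median 0.75). Col18a1 rose by 1.54 ± 0.12 and Col3a1 by 1.71 ± 0.23, while Col1a1 (0.39 ± 0.16) and Col1a2 (-0.21 ± 0.15) were not called. Of 13 folding and modification genes 4 rose and 0 fell (median 0.34), among them Serpinh1 by 0.42 ± 0.12, P4hb by 0.38 ± 0.11 and Ppib by 0.59 ± 0.11. Of 8 collagen VI binding proteins, 3 rose and 3 fell (median -0.13). Bgn fell by 1.42 ± 0.14 and Fn1 by 0.71 ± 0.13, and Hspg2 rose by 0.56 ± 0.12. The proteases Mmp2 (1.74 ± 0.14) and Mmp11 (2.59 ± 0.24) rose, 2 of 5 measured, and 0 fell. Itgb1 fell by 0.97 ± 0.12, while 3 of 8 receptors rose.

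In bCLFAE against bCFAE, at a background of 6.45% of genes (216 rose and 234 fell), 3 of the 4 rose. Col6a1 rose by 1.18 ± 0.13 (adjusted p = 1.07e-09), Col6a2 by 0.95 ± 0.15 (adjusted p = 7.19e-06), and Col26a1 had 48 counts against 3, a ratio of 13.4 (4.33 to 67.5, adjusted p = 0.000264). Col6a3 differed by 0.53 ± 0.19 and was not called (adjusted p = 0.0864), though it was in a fit of the 2 media alone (adjusted p = 0.0371). In bCSFAE against bCFAE all 4 rose, at a background of 6.05% (208 genes rose and 214 fell). Col6a1 rose by 1.27 ± 0.13 (adjusted p = 1.07e-10), Col6a2 by 1.06 ± 0.15 (adjusted p = 4.18e-07) and Col6a3 by 0.95 ± 0.18 (adjusted p = 0.000112). Col26a1 had 55 counts against 3, a ratio of 14.3 (4.66 to 71.7, adjusted p = 0.000125). The epithelial markers summed to 12.6 to 21.6 CPM in bCSFAE wells and 54.2 to 81.5 CPM in bCFAE wells, and the macrophage markers to 52.0 to 71.2 and 40.7 to 44.2 CPM, and their part was not tested. For Col26a1 in the 4 tested comparisons with bCFAE, the well bCFAE 3, which holds 2 of the 3 bCFAE counts, moved the fitted log2 fold change most. Without it the change went from 3.65 to 4.61 for bC6FAE[2], from 5.25 to 6.20 for bC6FAE[10], from 3.55 to 4.51 for bCLFAE and from 3.62 to 4.58 for bCSFAE. All 4 stayed called without any 1 well, with adjusted p of at most 0.00918.

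**Figure D2:**
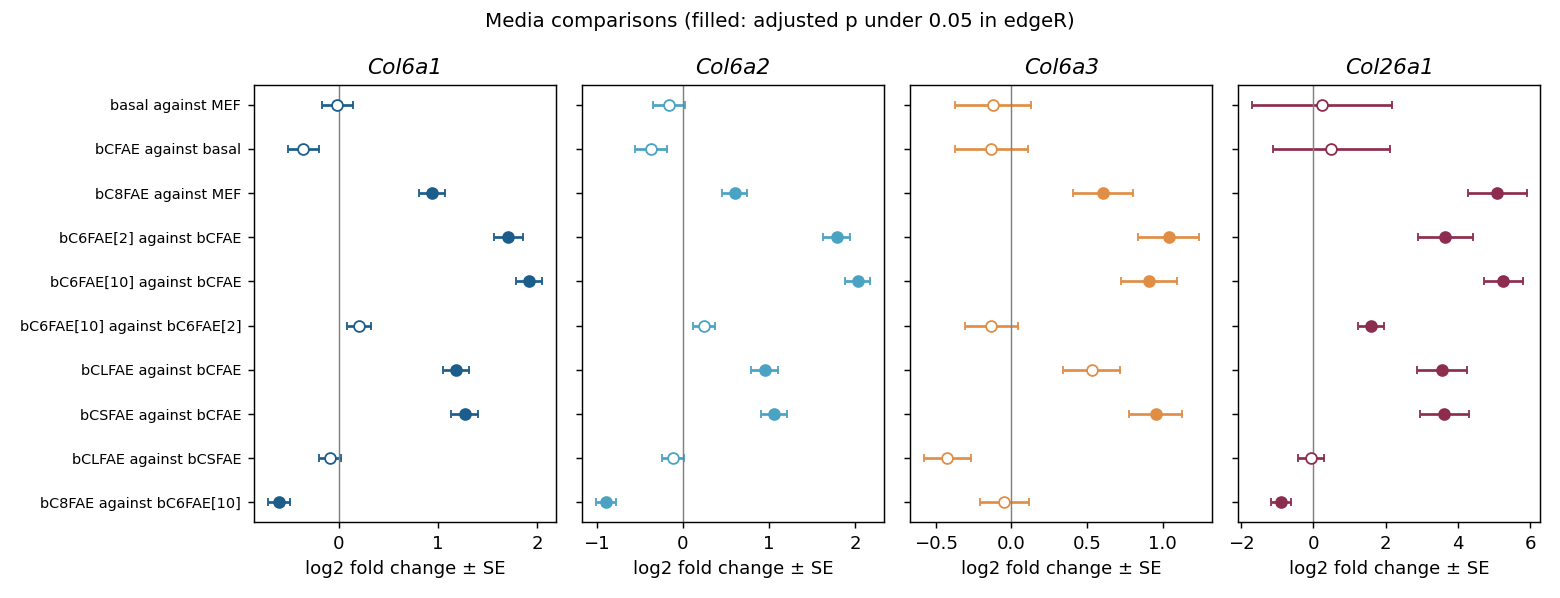
Log2 fold change ± SE (horizontal axis, a scale of its own for each gene) of the 4 genes in the 10 media comparisons that were tested; filled points passed an adjusted p of 0.05 in edgeR. The first and second comparisons have no filled point, and the comparisons with bCFAE as the second medium have filled points to the right of 0 except Col6a3 in bCLFAE.

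Media that share the high state were then compared directly. In bC6FAE[10] against bC6FAE[2], where 0.402% of genes were called, Col26a1 alone of the 4 was called. It rose by 1.60 ± 0.35 (adjusted p = 0.0113), from 23.7 ± 9.27 to 71.8 ± 16.4 CPM (SD, n = 3 and 4), with no overlap of wells. The summed fibroblast markers did not overlap either (5764 to 6429 CPM in bC6FAE[2] and 6655 to 7831 CPM in bC6FAE[10]). Among them mean Thy1 went from 3143 to 4185 CPM and Vim from 2010 to 1982 CPM, and their part was not tested. The call was lost without bC6FAE[10] 4 (1.45, adjusted p = 0.0967), bC6FAE[2] 1 (1.56, adjusted p = 0.236) or bC6FAE[2] 2 (1.36, adjusted p = 0.198). The collagen VI chains differed by 0.21 ± 0.12 for Col6a1, 0.25 ± 0.13 for Col6a2 and -0.13 ± 0.17 for Col6a3, with adjusted p of 0.663 or more.

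In bC8FAE against bC6FAE[10], at a background of 9.05% of genes (233 rose and 398 fell), 3 of the 4 were called lower. Col6a1 fell by 0.61 ± 0.11 (adjusted p = 6.79e-05) and Col6a2 by 0.89 ± 0.12 (adjusted p = 1.41e-07). Col6a3 differed by -0.05 ± 0.16 (adjusted p = 0.91). The summed fibroblast markers were 4713 to 6236 CPM in bC8FAE wells and 6655 to 7831 CPM in bC6FAE[10] wells. Among them mean Thy1 was 2324 and 4185 CPM and Vim 1999 and 1982 CPM. The epithelial markers summed to 7.91 to 35.4 and 36.5 to 67.3 CPM. The part of these markers was not tested. Col26a1 fell by 0.90 ± 0.28 (adjusted p = 0.0276), or by 1.41 without bC8FAE 5, a call lost with DESeq2 (adjusted p = 0.0894), in a fit of the 2 media alone (adjusted p = 0.0548) and without any 1 of bC8FAE 2, bC8FAE 3, bC6FAE[10] 3 and bC6FAE[10] 4 (adjusted p = 0.129, 0.113, 0.0606 and 0.124). Of 14 other collagens, 1 rose and 7 fell (median -0.64), among them Col1a1 by 0.75 ± 0.16 and Col3a1 by 0.88 ± 0.20. In bCLFAE against bCSFAE, where 0.0287% of genes were called (368 genes had an unadjusted p under 0.05), none of the 4 was called. Differences were -0.09 ± 0.12 for Col6a1, -0.11 ± 0.13 for Col6a2, -0.42 ± 0.16 for Col6a3 and -0.07 ± 0.36 for Col26a1.

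Of 3 further collagen VI chain genes looked for, Col6a4, Col6a5 and Col6a6, 2 had a row in the table and 0 passed the filter on low counts.

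The screening wells were described next. On plate 1 Col6a1 ranged from 68.2 to 883 CPM with a median of 609.8 CPM, on plate 2 from 46.3 to 1137 CPM with a median of 722 CPM, and on plate 3 from 54.0 to 988 CPM with a median of 610.0 CPM. It was under 50% of the plate median in 11, 6 and 4 wells and over 200% of it in 0 wells of each plate, so the wells far from the median were low wells. Col6a2 had medians of 262, 358 and 278 CPM, and was under 50% of the median in 6, 5 and 3 wells and over 200% in 0 wells. Col6a3 had medians of 66.3, 84.4 and 99.95 CPM, and was under 50% of the median in 11, 5 and 3 wells and over 200% in 1 well of each plate. On plate 3 that well was bC8FAE 4, a shallow well without a compound, at 201 CPM from 24 counts. The highest compound well of plate 3 was MRT67307, at 161 CPM. The coefficient of variation of Col6a1 was 33.0%, 27.4% and 31.1% on the 3 plates, where counting error at the mean count gives 7.50%, 4.93% and 6.12%.

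Col26a1 varied more between wells than the collagen VI chains did. Its medians were 32.9, 46.3 and 36.8 CPM and its highest wells 130.2, 125 and 135 CPM. Its coefficient of variation was 76.9%, 56.6% and 71.2%, beside 29.0%, 19.4% and 24.7% from counting error at the mean count. It was over 200% of the plate median in 15 of 90, 6 of 86 and 5 of 46 wells and under 50% of it in 26, 16 and 9. The plate 3 numbers include wells without a compound. Of these, bC8FAE 5 (81.9 CPM) was over 200%, and bC8FAE 3 and bC8FAE 4 (17.7 and 16.8 CPM) were under 50%. Col26a1 had 0 counts in 7, 2 and 5 wells, while Col6a3 had 0 counts in 1 well and Col6a1 and Col6a2 in none. On plate 1 the wells at 0 were APTO_253, Coptisine, Lck_Inhibitor, MCB_613, NMS_1286937, PF_04979064 and SGI_7079. On plate 2 they were CCT245737 and NT157, and on plate 3 BEZ235, Brigatinib, HLM006474, Rigosertib and THZ1. These names were chosen after their values were seen. In CCT245737, whose well had 887444 counts, 0 counts allow up to 3.38 CPM, and in PF_04979064, with 161341 counts, up to 18.6 CPM.

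Each compound was compared with the other screening wells of its plate, 210 tests in all. Col6a1 was called lower with 7 compounds, Col6a2 with 6, Col6a3 with 5 and Col26a1 with 1, and none of the 4 was called higher with any. The background of genes called lower, over all gene and compound pairs, was 0.152% on plate 1, 0.318% on plate 2 and 0.435% on plate 3. With an unadjusted p under 0.05, Col6a1 was lower with 16 compounds and higher with 0, Col6a2 lower with 14 and higher with 1, Col6a3 lower with 12 and higher with 3, and Col26a1 lower with 19 and higher with 4. The calls came from 7 compounds, each with 1 well, whose totals were 50.5% to 163% of the median of the rest of the plate. With limma-voom the calls were fewer (5, 3, 1 and 0 compounds).

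**Figure D3:**
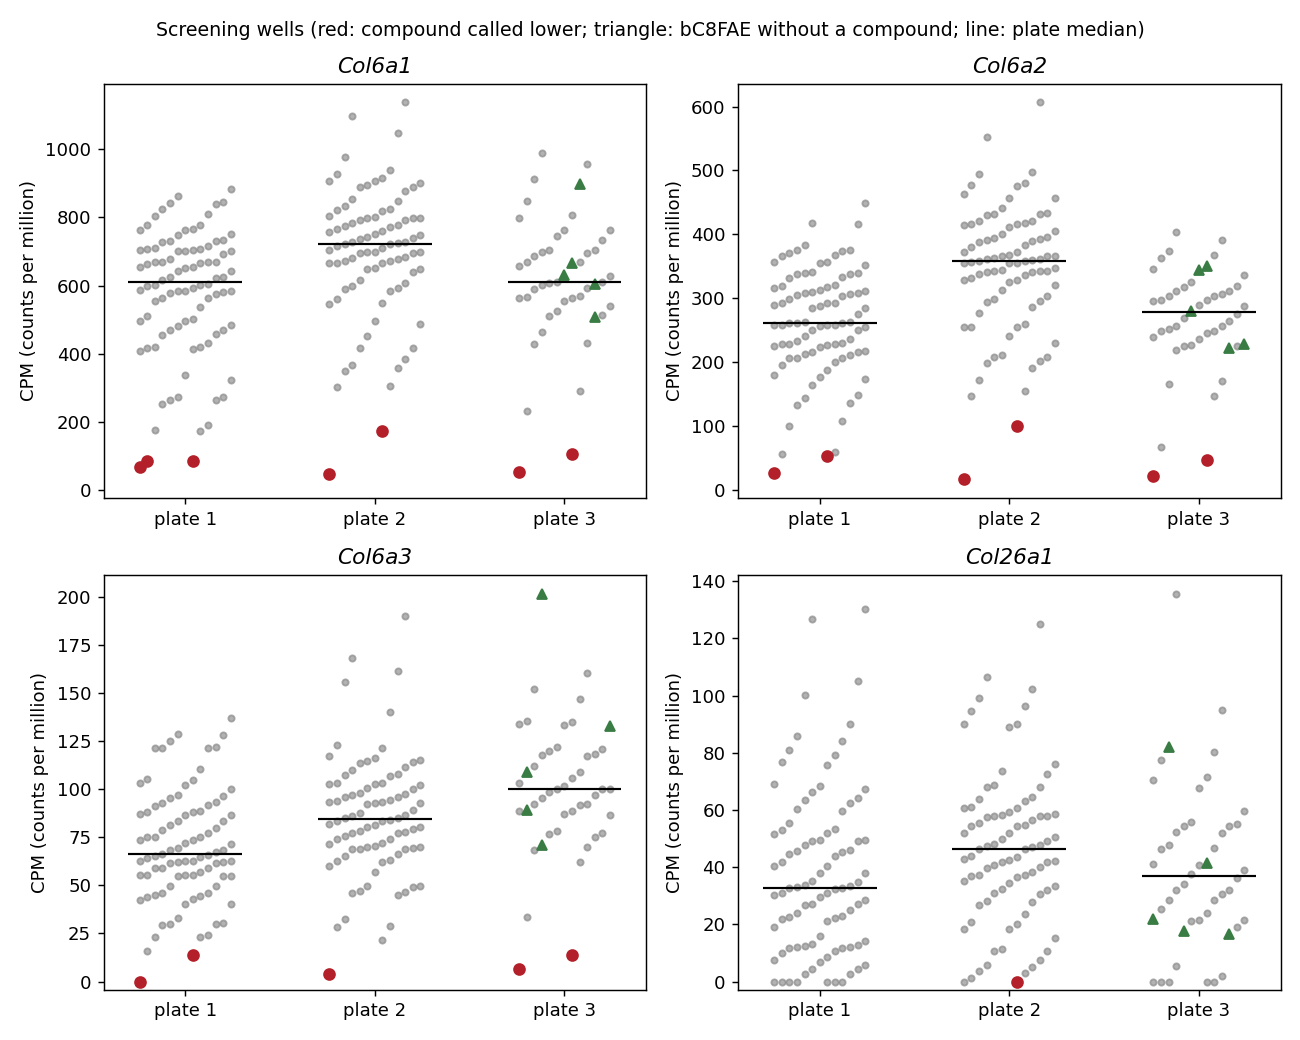
Level in CPM (vertical axis) of each gene in the 222 screening wells, by plate; red points are wells of compounds called lower for that gene, triangles the bC8FAE wells without a compound on plate 3, and lines the plate medians. The red wells lie at the bottom of each plate, from 46.3 to 173 CPM for Col6a1, and Col26a1 has wells at 0 on all 3 plates.

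NT157, known as an inhibitor of the insulin receptor substrates, had the lowest levels of collagen VI on plate 2. Its well, of 518696 counts, had 46.3 CPM of Col6a1 from 24 counts, and the other wells of the plate had a median of 723 CPM and a lowest value of 173 CPM. Col6a1 was lower by 3.85 ± 0.59 on the log2 scale (adjusted p = 1.25e-07), a fitted fold of 14.4. Col6a2 had 17.4 CPM from 9 counts, beside a median of 358 CPM, and fell by 4.25 ± 0.68 (adjusted p = 3.43e-07). Col6a3 had 2 counts, 0.0448 of the level of the rest (exact 95% counting interval 0.00543 to 0.162, adjusted p = 6.01e-05). Col26a1 had 0 counts where the others had a median of 46.3 CPM, so it was at least 7.71-fold lower against a floor of 3 counts in the well (adjusted p = 0.0372). NT157 was the compound with all 4 genes called, and 13.2% of all genes were called lower in it. The summed fibroblast markers were 2387 CPM, below the 3900 to 7838 CPM of the other wells, and the macrophage markers 536 CPM, above their 10.8 to 198 CPM. Their part in these results was not tested.

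On the same plate, FIIN_2, an inhibitor of fibroblast growth factor receptors, had 2 of the chains called lower while fibrillar collagens rose. Its well had 173 CPM of Col6a1 from 60 counts and 101 CPM of Col6a2 from 35 counts, the second lowest of the plate for both. Col6a1 fell by 2.27 ± 0.56 (adjusted p = 0.00424) and Col6a2 by 2.04 ± 0.60 (adjusted p = 0.0169). Col6a3 (28.9 CPM, -1.83 ± 0.68, adjusted p = 0.0698) and Col26a1 (20.2 CPM from 7 counts, adjusted p = 0.524) were not called, and 4.67% of genes were called lower. Of 17 other collagens 8 rose and 2 fell, where 5.37% of all genes were called higher. Col1a1 had 2473 CPM beside a median of 122 CPM in the rest of the plate and rose by 3.58 ± 0.60 (adjusted p = 1.43e-05). Col1a2 had 1304 CPM beside 172 CPM and Col3a1 1593 CPM beside 125 CPM, and both rose. Col18a1 fell with the collagen VI chains, at 202 CPM beside 1309.7 CPM (-2.86 ± 0.59). The folding genes Serpinh1 and Ppib were among 3 of 15 that rose. The fibroblast markers summed to 5975 CPM beside a median of 5726 CPM. Of that sum, Col1a1 and Col1a2 gave 2473 and 1304 CPM in FIIN_2, where the medians of the rest were 122 and 172 CPM. The other fibroblast markers together were therefore lower in this well than the near-equal sums show, and their part was not tested.

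On plate 3, LDC4297, an inhibitor of the cyclin-dependent kinase CDK7, gave the lowest Col6a1 and Col6a2. Col6a1 was at 54.0 CPM from 27 counts beside a median of 610.5 CPM in the other wells and fell by 3.71 ± 0.63 (adjusted p = 4.11e-05). Col6a2 was at 22.0 CPM beside 281 CPM and fell by 3.80 ± 0.68 (adjusted p = 7.24e-05). Col6a3 was at 14.0 CPM beside 99.97 CPM and fell by 3.03 ± 0.68 (adjusted p = 0.00107). Col26a1 had 1 count, 0.0516 of the level of the rest (0.00131 to 0.288), and was not called (adjusted p = 0.0994), with 10.3% of genes called lower. Of 15 other collagens 5 fell and 3 rose, where 9.33% of all genes were called higher. Col18a1 (-3.32 ± 0.86), Col1a2 (-2.49 ± 0.83) and Col3a1 (-3.62 ± 1.02) were among those that fell, and the basement membrane pair Col4a1 and Col4a2 among those that rose. The fibroblast markers summed to 2228 CPM, below the 3630 to 6709 CPM of the other wells, and their part was not tested.

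BEZ235, an inhibitor of PI3K and mTOR, was the other compound called on plate 3. Col6a1 stood at 107 CPM from 34 counts and fell by 2.47 ± 0.66 (adjusted p = 0.0105), and Col6a2 stood at 47.3 CPM from 15 counts and fell by 2.45 ± 0.71 (adjusted p = 0.0186). Col6a3 had 2 counts, 0.0610 of the level of the rest (0.00738 to 0.221, adjusted p = 0.00331). Col26a1 had 0 counts, at least 4.07-fold lower, and was not called (adjusted p = 0.18), with 4.84% of genes called lower. The folding and modification genes fell in 6 of 14 cases, Serpinh1 and P4hb among them, and 1 of 15 other collagens fell, Col18a1 (-2.52 ± 0.86). Epithelial markers summed to 419 CPM in this well, and macrophage markers to 290 CPM, beside 0 to 68.9 and 22.5 to 234 CPM in the rest of the plate, and their part was not tested.

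The remaining 3 compounds were on plate 1. MCB_613, described as a stimulator of steroid receptor coactivators, had 85.2 CPM of Col6a1, 27.1 CPM of Col6a2 and 13.5 CPM of Col6a3, from 44, 14 and 7 counts. The other wells had medians of 615, 262 and 66.5 CPM. The log2 fold changes were -2.91 ± 0.70 (adjusted p = 0.009), -3.42 ± 0.70 (adjusted p = 0.00164) and -2.47 ± 0.70 (adjusted p = 0.0272), all called lower, where 1.99% of genes were called lower. Its Col26a1 had 0 counts, at least 6.66-fold lower, and was not called (adjusted p = 0.105). The proteases Bmp1, Mmp2, Mmp11 and Mmp14, 4 of 6 measured, fell, and 0 of 15 other collagens were called.

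APTO_253, described as an inhibitor of MYC expression, had 86.7 CPM of Col6a1 and 53.3 CPM of Col6a2, from 26 and 16 counts. Their log2 fold changes were -2.84 ± 0.73 (adjusted p = 0.0144) and -2.40 ± 0.70 (adjusted p = 0.031), both called lower, at a background of 1.77% of genes called lower. Col6a3 (23.3 CPM, -1.66 ± 0.74, adjusted p = 0.162) was not called, and Col26a1 had 0 counts, at least 3.83-fold lower (adjusted p = 0.204). Col18a1 fell by 3.46 ± 0.85, the 1 call among 15 other collagens. Its fibroblast markers summed to 3147 CPM, below the 3291 to 8090.2 CPM of the other wells, and their part was not tested. PF_04979064, like BEZ235 an inhibitor of PI3K and mTOR, had the lowest Col6a1 of the plate, 68.2 CPM from 11 counts in a well of 161341. It fell by 3.11 ± 0.82 (adjusted p = 0.0161), and 1.65% of genes were called lower. Col6a2 (55.8 CPM, -2.26 ± 0.79, adjusted p = 0.0729) was not called. Col6a3 had 0 counts, at least 3.70-fold lower (adjusted p = 0.0211), and Col26a1 had 0 counts, at least 2.05-fold lower (adjusted p = 0.376). Epithelial markers summed to 322 CPM in this well and 0 to 594 CPM in the others, and macrophage markers to 254 CPM and 0 to 220 CPM. Their part was not tested.

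**Figure D4:**
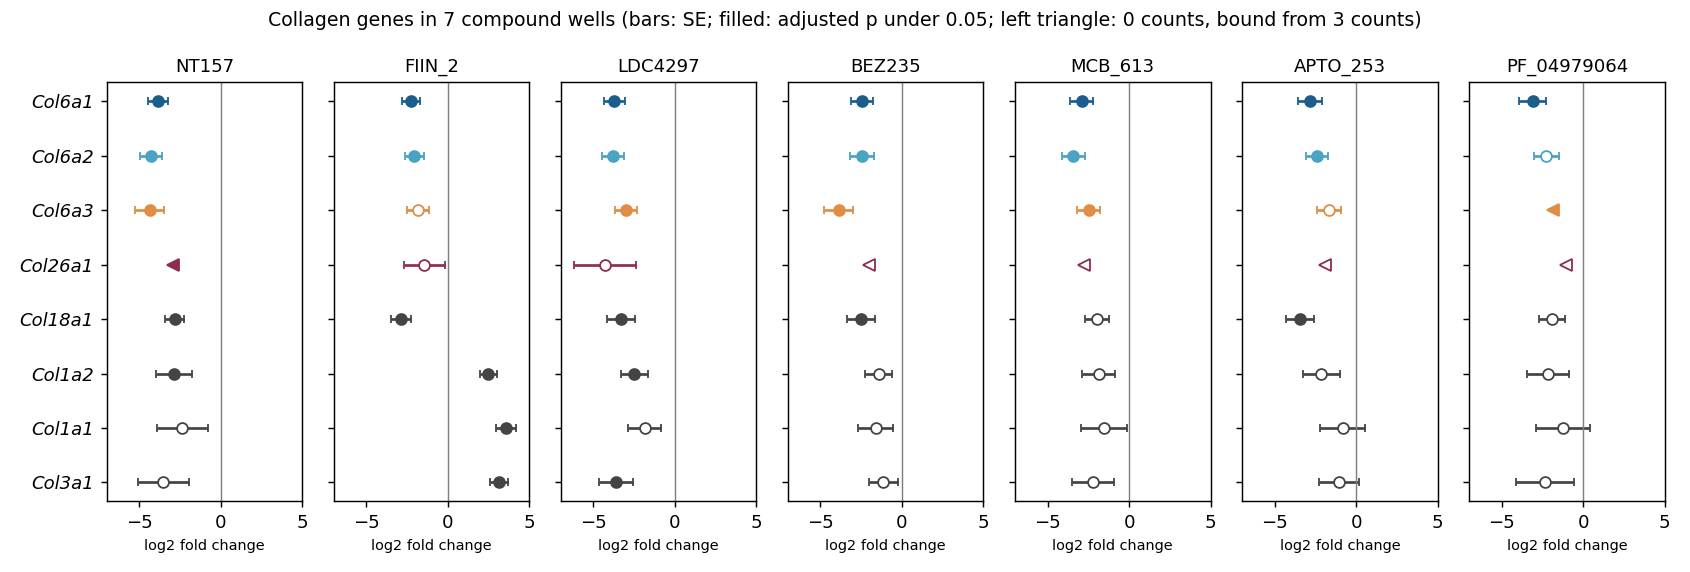
Log2 fold change ± SE (horizontal axis) of the 4 genes and of the 4 other collagens with the highest level in medium wells, for the 7 compounds called for a member against the other screening wells of their plates; filled symbols passed an adjusted p of 0.05, and left triangles are genes at 0 counts drawn at the bound from 3 counts. Col1a1, Col1a2 and Col3a1 lie to the right of 0 in FIIN_2 (by 3.58, 2.50 and 3.15) and to the left of 0 in the other 6. In those 6, only Col1a2 with NT157 and LDC4297 and Col3a1 with LDC4297 were called.

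With the 5 bC8FAE wells of plate 3 alone as the reference, Col6a1, Col6a2 and Col6a3 were each called lower with 4 compounds of that plate and Col26a1 with 6, instead of 2, 2, 2 and 0. The background of genes called lower with this reference was 0.934% over all compounds of the plate. THZ1, another CDK7 inhibitor, was then called for all 4 genes, where 6.71% of genes were called lower. Its Col6a1 fell by 1.38 (adjusted p = 0.00337), Col6a2 by 1.15 (adjusted p = 0.00778) and Col6a3 by 1.04 (adjusted p = 0.0327). LY3009120, a RAF inhibitor, was called for Col6a1 (-1.46, adjusted p = 0.00313) and Col6a2 (-2.05, adjusted p = 0.000178), at a background of 3.04%, and Brigatinib for Col6a3 (-1.71, adjusted p = 0.00569) and Col26a1, at 2.88%. The 5 reference wells include the shallow well bC8FAE 4.

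Compounds were also grouped by their main target. Of 28 classes with at least 3 compounds, 3 called 1 of the genes each and all lower, and none was called higher (12 of the class and gene pairs had an unadjusted p under 0.05). With the 3 MEK inhibitors Col6a1 fell by 1.202 ± 0.38 (adjusted p = 0.0142), at a background of 21.2% of 7984 genes called. The class backgrounds count genes called in either direction. Col6a1 was at 338 CPM with GDC_0623, 265 CPM with Trametinib and 176 CPM with Ro_5126766, where the plate median was 609.8 CPM. The last value rests on 8 counts in a well of 45388. Without Ro_5126766 the adjusted p was 0.0574 and without Trametinib 0.147.

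The mTOR and dual PI3K/mTOR class had 5 compounds in 6 wells, and Col26a1 fell by 2.06 ± 0.60 (adjusted p = 0.00805), at a background of 18.9%. Col26a1 had 0 counts with PF_04979064 and BEZ235 and 1 count with GNE_317, but 13 counts with PI_103 (32.7 CPM, at the plate median of 32.9). The 2 wells of CC_115 differed: the well listed as CC_115 had 16 counts and the hydrochloride 1 count, at totals of 864169 and 868013. Without CC_115 the adjusted p was 0.114. In the same pair of wells Col6a1 was at 705 and 695 CPM. The PLK4 class holds inhibitors of a centriole kinase, and Col26a1 fell by 2.95 ± 0.90 (adjusted p = 0.0397), at a background of 3.81%. Its 4 wells had 2 counts with Centrinone, 3 with Centrinone_B and 2 and 1 with CFI_400945 as free base and fumarate, or 2.63 to 7.41 CPM beside a plate median of 32.9 CPM. Col6a1 in these wells was at 418 to 605 CPM, or 68.5% to 99.1% of the plate median, and was not called (adjusted p = 0.799). Col6a2 was at 90.6% to 147% of it and not called (adjusted p = 0.82). Col6a3 was above the median in each of these wells, at 132% to 184%, and not called (0.54 ± 0.27, adjusted p = 0.246). The PLK4 call was lost when any 1 of the 3 compounds was left out, with adjusted p of 0.086 to 0.574. None of the 3 class calls passed in limma-voom (adjusted p = 0.125, 0.143 and 0.521).

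Over the 222 screening wells, with the plate medians removed, Col6a1 and Col6a2 followed each other closely (Pearson r of log2(CPM + 1) = 0.905). The correlation was 0.874 on plate 1, 0.919 on plate 2 and 0.964 on plate 3. Col6a3 followed them less (0.728 with Col6a1 and 0.701 with Col6a2), and Col26a1 less again (0.617, 0.593 and, with Col6a3, 0.400). These are descriptions over wells that share a plate, a library and a medium. The count of Col6a1 over that of Col6a2 was 2.23 ± 0.502 (SD, n = 90), 2.05 ± 0.356 (n = 86) and 2.34 ± 0.347 (n = 46) on the 3 plates.

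**Figure D5:**
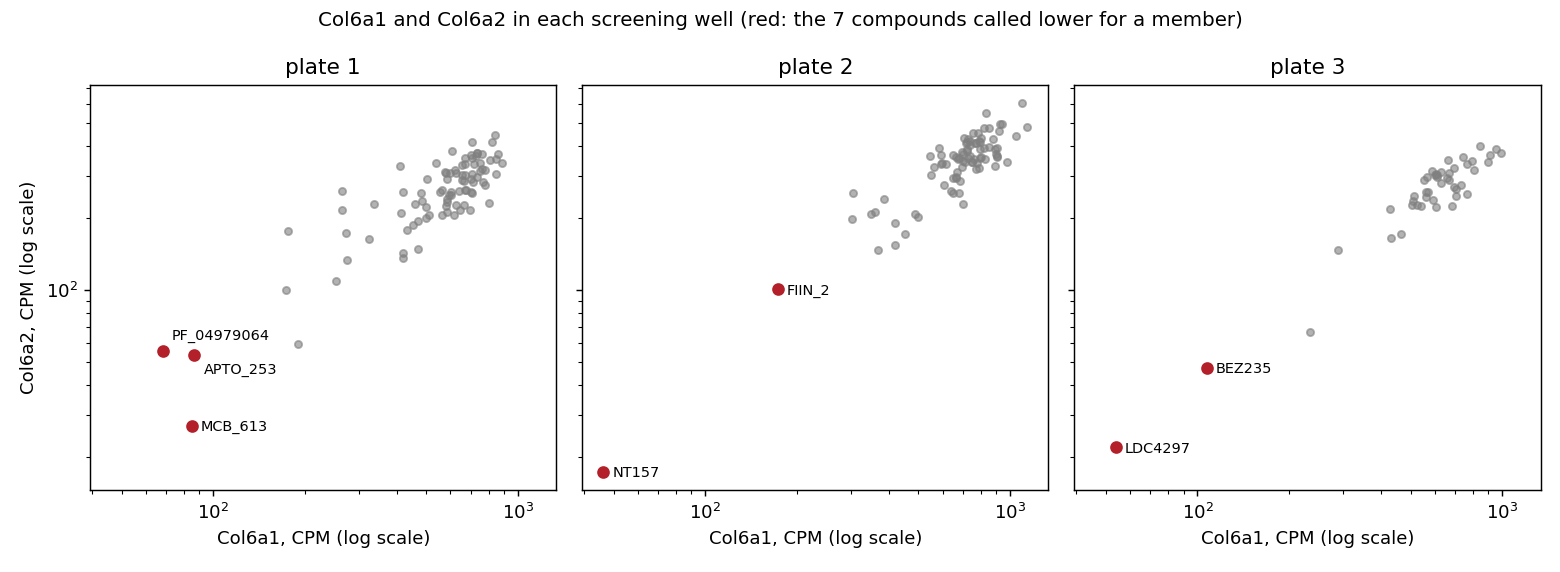
Level of Col6a2 against Col6a1 in CPM (both axes on a log scale) in each of the 222 screening wells, by plate; red points are the 7 compounds called lower for a member. The wells lie along a line on each plate (r = 0.874, 0.919 and 0.964), and the red wells lie at its lower end.

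Out of 3099 genes whose mean level reached 50 CPM, the 5 whose pattern over the 222 wells was most like that of Col6a1 were Col6a2 (r = 0.905), Fbln1 (0.888), Nrgn (0.851), Lrrn1 (0.841) and Agtr2 (0.834). For Col6a2 they were Col6a1, Fbln1 (0.882), Mmp2 (0.832), Lrrn1 (0.827) and Dchs1 (0.797). Those of Col6a3 were Ptprv (0.816), Plxnb2 (0.776), Dchs1 (0.765), Inhbb (0.743) and Col6a1 (0.728). Col26a1 was most like Nkd1 (0.810), Msx1 (0.800), Itm2a (0.789), Emc10 (0.780) and Ahcy (0.774), and no collagen VI chain was among its 5. Fbln1 encodes the matrix protein fibulin-1, and Nkd1 encodes an inhibitor of Wnt signalling that Wnt itself induces.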

How the data were processed

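DRUG-seq2 counts of 3 plates of mouse embryonic fibroblast wells were analysed. The authors deposited whole-number counts per gene and well, with no scaling, as the values show. The submitters' processing notes name STAR and mm10, with no version of STAR. No source used here names the counting tool or says whether it used strand or molecular identifiers. Of 274 columns, 257 could be tied to 1 plate through the lists of barcodes and 17 were not used: 10 of compounds listed on 2 plates, 6 in no list and 1 left out because of its name. Another 4 repeated a column exactly and were counted once, leaving 253 wells. A total of 26 rows named as dates were left out of totals and tests. The 4 members, the gene lists and the target classes were chosen with earlier results of these data known.

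CPM is the count over the total of the well. Tests used edgeR 4.0.16 in R 4.3.3 (TMM, filterByExpr with a minimum count of 10, quasi-likelihood F test) with Benjamini-Hochberg adjustment over all genes of a fit. The media shared 1 fit of 30 wells. Each compound was set against the other screening wells of its plate, with the spread taken from the whole plate and salts of a compound joined. Classes were fitted over all plates with a plate term. Wells below 10% of the median total of their plate were left out. SE is the log2 fold change over the root of F. A group at 0 counts was set at a floor of 3 counts, and groups of 1 to 3 counts have exact 95% intervals, both for counting error only. The scripts were tested on simulated counts.

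Genes named from each list were the 3 with the highest mean CPM in medium wells (4 for the other collagens), whatever their change. Compounds and classes were named where a member was called. Alternatives were library totals or DESeq2 1.42.0 size factors as scaling, DESeq2, limma-voom (limma 3.58.1), a minimum count of 30, no filter, a depth of 30%, fits of 2 media alone, another reference on plate 3, leaving out wells or compounds and, added after seeing the data, the well number as a replicate block. Gene positions came from GENCODE vM21.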

Additional observations from a re-analysis of the deposited data

Results flagged for a closer look

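Of 20 sets of 4 or 5 medium wells (4 genes in 5 media), 2 had a well far from the rest. Chance alone marks about 1 in 20 sets of continuous values. Col6a2 in bCLFAE 4 was at 302 CPM, where the other 3 bCLFAE wells were at 217 to 231 CPM. Col26a1 in MEF 2 was at 2.85 CPM, which is 1 count, where the other 3 MEF wells had 0 counts. With the other wells at 0, any count in a well is marked, so that rate does not apply to this set.

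Wells named nocell, which no comparison used, had counts of the collagen VI chains. The well nocell 3, with a total of 25279 counts, had 22 counts of Col6a1 and 6 counts of Col6a2, above the 3 counts that a count of 0 allows, and 2 counts of Col6a3. The first 2 are 870 and 237 CPM. Some compound wells rest on Col6a1 counts of like size, such as 27 with LDC4297 and 11 with PF_04979064. No background was subtracted from any level, and the intervals and floors do not cover it. The well nocell 2, with a total of 4273, had 1 count of Col6a1 and 0 of the others. Col26a1 had 0 counts in both.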

How the results depend on the processing

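All media calls not named here kept their direction and their side of an adjusted p of 0.05 under every alternative of scaling, tool, filter and fit that was run. In bCFAE against basal, Col6a1 became called at a minimum count of 30 (-0.37), in a fit of the 2 media alone (-0.35) and without MEF 3 and bC8FAE 4 (-0.36). Col6a3 lost its call in bC8FAE against MEF without those 2 wells (0.49) and gained one in bCLFAE against bCFAE in a fit of the 2 media alone (0.53). Col26a1 in bC8FAE against bC6FAE[10] was lost with DESeq2 (-0.94) and in a fit of the 2 media alone (-0.89). Leaving out 1 well gave 0.51 to 0.72 for Col6a3 in bC8FAE against MEF, 1.36 to 1.87 for Col26a1 in bC6FAE[10] against bC6FAE[2] and -1.41 to -0.72 for Col26a1 in bC8FAE against bC6FAE[10]. The cause of these changes was not tested.

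The numbers of compounds that call Col6a1, Col6a2, Col6a3 and Col26a1 were 7, 6, 5 and 1, and 5, 3, 1 and 0 with limma-voom. They did not change with the other scalings, a minimum count of 30 or a depth of 30%. With bC8FAE wells alone as the reference, plate 3 gave 4, 4, 4 and 6. Limma-voom called 0 of the 3 class results (Col6a1 in MEK -1.07, Col26a1 in mTOR -2.48 and in PLK4 -2.13). Leaving out 1 compound gave -1.47 to -1.08, -2.74 to -1.79 and -3.19 to -2.59. Low counts limit Col26a1 most, with 3 or fewer counts in all of MEF, basal and bCFAE.

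The wells of each medium are numbered in the files, and no source used here says that a number marks a shared batch or day. Over 36 pairs of same-numbered wells in the 11 media comparisons, deviations from the group means correlated at -0.129 to 0.116, and 1 pair was over 0.1. Of 72 such wells, 30 correlated best with their own number. This held for 7 of 8 wells in bCLFAE against bCSFAE and 5 of 6 in basal against MEF. It held for 0 of 8 in bC8FAE against MEF and 0 of 6 in bCFAE against basal. Each well was matched among only 3 to 5 wells of the other medium, so some such matches arise by chance. The number expected by chance was not computed. Whether same-numbered wells share more than a number was not tested. A fit with the number as a replicate block, chosen after seeing the data, called 4 in place of 2 genes in bCLFAE against bCSFAE and moved the other counts of calls by less than 1.5 times. Of the 4 genes, Col6a1 became called in bCFAE against basal (-0.36, adjusted p = 0.048) and Col6a3 was no longer called in bC8FAE against MEF (0.51, adjusted p = 0.0576).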
